A study of Mus musculus with 10 samples.

Results

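The 9 genes described here build motile cilia or switch on the programme that makes many of them per cell. They are Mcidas, Ccno and Deup1, which act in centriole amplification, the transcription factor genes Trp73 and Foxj1, and Dnah5, Dnah9, Rsph1 and Tekt1, which encode parts of the axoneme. They were chosen by name, and for each the called peaks within its RefSeq span (mm10) with 10 kb on each side, its window, were collected. Peaks of all lists that overlapped by 1 bp or touched were merged into regions, and the 9 windows held 146 of 351411 regions. The Mcidas and Ccno windows overlap and share regions, so these genes are not independent of each other.

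Open chromatin had been profiled by ATAC-seq, in which a transposase cuts accessible DNA, in thymic epithelial cells (TEC) sorted from C57BL/6 mice of wild-type genotype, and the labels describe the chromatin as nucleosome-free. The 10 libraries form 5 groups of 2. Cells came from embryos at day 15 (E15) or day 17 (E17), or at day 6 from fractions labelled mTEC4, mTEC1 and mTEC2. The names of the peaks inside the lists differ from these titles, with aTEC, eTEC and Hi for mTEC4, mTEC1 and mTEC2 and hi for the embryonic libraries, and the groups here follow the titles. The labels do not spell out how the fractions were sorted, and for the embryonic libraries they name no fraction, so the effects of age and of sorted fraction cannot be told apart. Nothing in the labels says that libraries of a group came from separate animals, so the spread between them may be technical. The lists held 40858 to 151646 peaks, with mTEC2 replicate 2 the shortest and E17 replicate 2 the longest. They carry no read counts, so read depth is unknown, and a site without a peak was not called rather than shown to be closed. In such bulk libraries, openness in fewer cells and weaker openness in each cell cannot be told apart.

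Multiciliated cells grow many motile cilia from centrioles that they amplify in large numbers. Multicilin, the product of Mcidas, acts with E2F factors to start this programme. Foxj1 and the RFX factors, which bind X-box motifs, then activate genes of the moving axoneme. In the thymus, medullary TEC include mimetic cells that resemble ciliated cells of other organs.

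Promoter sequences were available from RefSeq (GRCm38.p6, the mm10 assembly) for 7 of the 9 genes, in 10 windows of 300 bases around annotated starts. Here 5 of them are shown, 1 per gene, since each was overlapped by a called region in all 4 embryonic libraries and in 1 (Mcidas, Deup1, Tekt1), 5 (Dnah9) or 6 (Ccno) day 6 libraries. A second Deup1 window with the same calls is not shown. Capitals mark matches to the RFX half-site GTTNCC on either strand. The windows lie at chr13:112987552-112987851 (+ strand) for Ccno, chr13:112993618-112993917 (+) for Mcidas and chr11:66168502-66168801 (- strand) for Dnah9. Those of Deup1 and Tekt1 lie at chr9:15627797-15628096 (-) and chr11:72361833-72362132 (-).
Ccno: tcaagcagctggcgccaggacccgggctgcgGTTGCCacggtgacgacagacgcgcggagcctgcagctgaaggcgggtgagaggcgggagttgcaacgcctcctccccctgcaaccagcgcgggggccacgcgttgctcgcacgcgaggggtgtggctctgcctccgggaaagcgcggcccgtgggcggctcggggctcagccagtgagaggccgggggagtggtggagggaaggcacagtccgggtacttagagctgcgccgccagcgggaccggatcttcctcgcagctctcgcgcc
Mcidas: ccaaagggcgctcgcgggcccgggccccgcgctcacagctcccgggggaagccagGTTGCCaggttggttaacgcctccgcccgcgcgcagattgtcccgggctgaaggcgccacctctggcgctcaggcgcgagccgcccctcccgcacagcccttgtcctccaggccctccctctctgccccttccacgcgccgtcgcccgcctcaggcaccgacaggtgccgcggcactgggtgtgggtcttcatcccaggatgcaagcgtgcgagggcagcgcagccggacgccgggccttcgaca
Dnah9: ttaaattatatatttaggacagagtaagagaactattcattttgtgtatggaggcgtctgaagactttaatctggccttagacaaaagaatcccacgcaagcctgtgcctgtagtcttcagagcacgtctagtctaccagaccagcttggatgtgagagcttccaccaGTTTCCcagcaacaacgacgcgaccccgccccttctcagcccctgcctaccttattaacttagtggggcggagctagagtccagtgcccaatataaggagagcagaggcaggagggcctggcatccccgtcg
Deup1: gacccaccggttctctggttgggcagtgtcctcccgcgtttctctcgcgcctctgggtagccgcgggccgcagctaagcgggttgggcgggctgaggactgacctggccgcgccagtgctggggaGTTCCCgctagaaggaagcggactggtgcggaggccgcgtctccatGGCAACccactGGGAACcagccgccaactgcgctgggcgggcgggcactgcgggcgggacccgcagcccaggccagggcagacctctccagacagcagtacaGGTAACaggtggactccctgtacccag
Tekt1: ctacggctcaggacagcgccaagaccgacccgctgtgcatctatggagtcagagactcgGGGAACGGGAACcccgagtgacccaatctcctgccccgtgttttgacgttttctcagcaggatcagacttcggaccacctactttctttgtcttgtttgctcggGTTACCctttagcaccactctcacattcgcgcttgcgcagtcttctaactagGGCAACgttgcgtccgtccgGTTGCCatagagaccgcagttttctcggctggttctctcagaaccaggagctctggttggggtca

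Of the 10 windows of the 7 genes, 8 held an RFX half-site (GTTNCC), against 45.3% of the 21263 promoter windows of coding genes. All 7 genes had one in at least 1 window, but the like share of all genes was not counted. The Tekt1 window shown held 5 matches and the Deup1 window 4, while 12.8% of all windows held 2 or more. The windows of Ccno, Mcidas and Dnah9 held 1 each. Of the other motifs searched on both strands, E2F (GGCGGGA) matched in 3 of the 10 windows against 14.9% of all windows. It occurred in the upstream Trp73 window, in Ccno and in Deup1. MYB (AACNGNC) matched in 3 windows against 32.2%, CCAAT in 3 against 38.2%, and the forkhead motif TGTTTAC in 0 against 3.01%. No RFX match in these 10 windows overlapped a match to another motif. A match is a string of letters and not a bound site.

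Promoter windows differed in how many libraries called them. That of Ccno, a cyclin-family gene needed for centriole amplification, was overlapped by a region (112987502 to 112988215 on chromosome 13) in all 10 libraries. The Dnah9 window, at the start of a gene for an outer arm dynein heavy chain, was overlapped in 9, all but mTEC4 replicate 1. Those of Mcidas, Deup1 and Tekt1 were overlapped in all 4 embryonic libraries and in 1 day 6 library each. That library was mTEC4 replicate 2 for Mcidas, mTEC2 replicate 1 for Deup1 and mTEC1 replicate 2 for Tekt1. The Dnah5 window, which lies at an annotated start inside the gene span, and the upstream window of Trp73 were overlapped in 3 embryonic libraries, all but E17 replicate 1, and in no day 6 library. No region overlapped the downstream window of Trp73, at its internal start, or the downstream window of Tekt1.

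For comparison, 59.4 to 62.5% of all promoter windows were overlapped in embryonic and 41.6 to 56% in day 6 libraries. All 10 libraries overlapped 35.4% of windows, and 4.61% were overlapped in all 4 embryonic and at most 1 day 6 library, the pattern of Mcidas, Deup1 and Tekt1, which was singled out after the values were seen. The second Deup1 window lies upstream of the first and was overlapped by the same region.

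**Figure D1:**
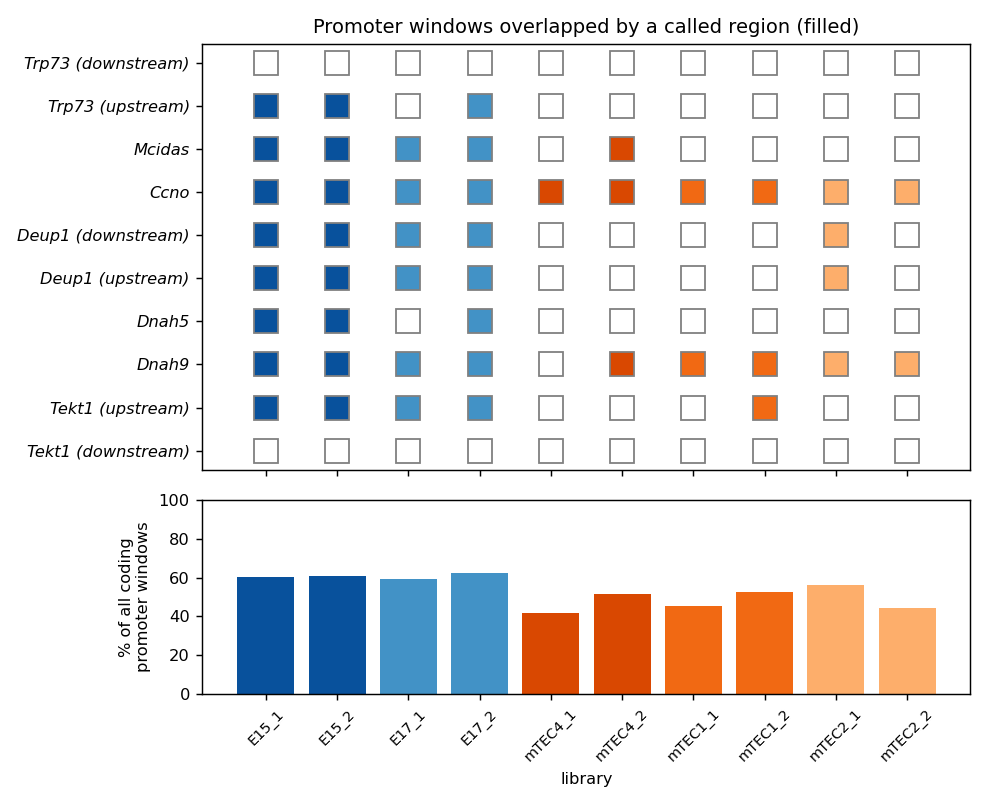
Promoter windows of 7 genes (rows) overlapped by a called region (filled) in each library (columns), with the percent of all coding-gene promoter windows overlapped in that library below. Ccno is filled in all 10 libraries, while Mcidas, Deup1 and Tekt1 are filled in all 4 embryonic libraries and in 1 day 6 library each. Filling marks a call of any strength.

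Embryonic libraries had more called regions than day 6 libraries at all 9 genes by their means, but 4 of these differences turned once counts were set against each library's own mean over genes. By the test of embryonic against day 6, the counts rose at Ccno, Deup1, Dnah5, Dnah9 and Tekt1, 5 of 9 genes. Of the 21026 genes tested 19.1% were higher in embryonic libraries and 0.128% lower, in an exact two-sided permutation test of mean counts (210 arrangements of the labels) with Benjamini-Hochberg adjustment over all of them. At an unadjusted p under 0.05, 8 of 9 members passed, all but Foxj1, against 40.1% of all genes in either direction, and a higher embryonic mean was found for 78.2% of all genes. Without mTEC2 replicate 1, 5 members were again called, against 24.1% of genes, but Trp73 and Rsph1 took the place of Deup1 and Tekt1. Without any other single library no gene of the whole table passed, so the 0 members called there say nothing about the members. With peaks of −log10 q 5 or more, all 9 members were called, against 70.1% of genes. With base pairs covered in place of regions all 9 were called, against 73.0%, and with 50% of a region required to be covered 8 were, against 41.0%. The median difference was 4.92 regions for the members and 1.25 for all genes tested. With counts divided by each library's mean over all genes, Foxj1, Mcidas, Ccno and Rsph1 were lower in embryonic libraries (differences of -0.0640, -0.0317, -0.0345 and -0.0921), and no gene of either direction passed. By that measure Trp73, Deup1, Dnah5, Dnah9 and Tekt1 stayed higher, by 0.742 to 1.33 times the library mean, with Trp73, Dnah9 and Tekt1 at an unadjusted exact permutation p of 0.0333, 0.00952 and 0.0333. At an unadjusted p under 0.05, 2276 genes were then higher and 2443 lower.

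**Figure D2:**
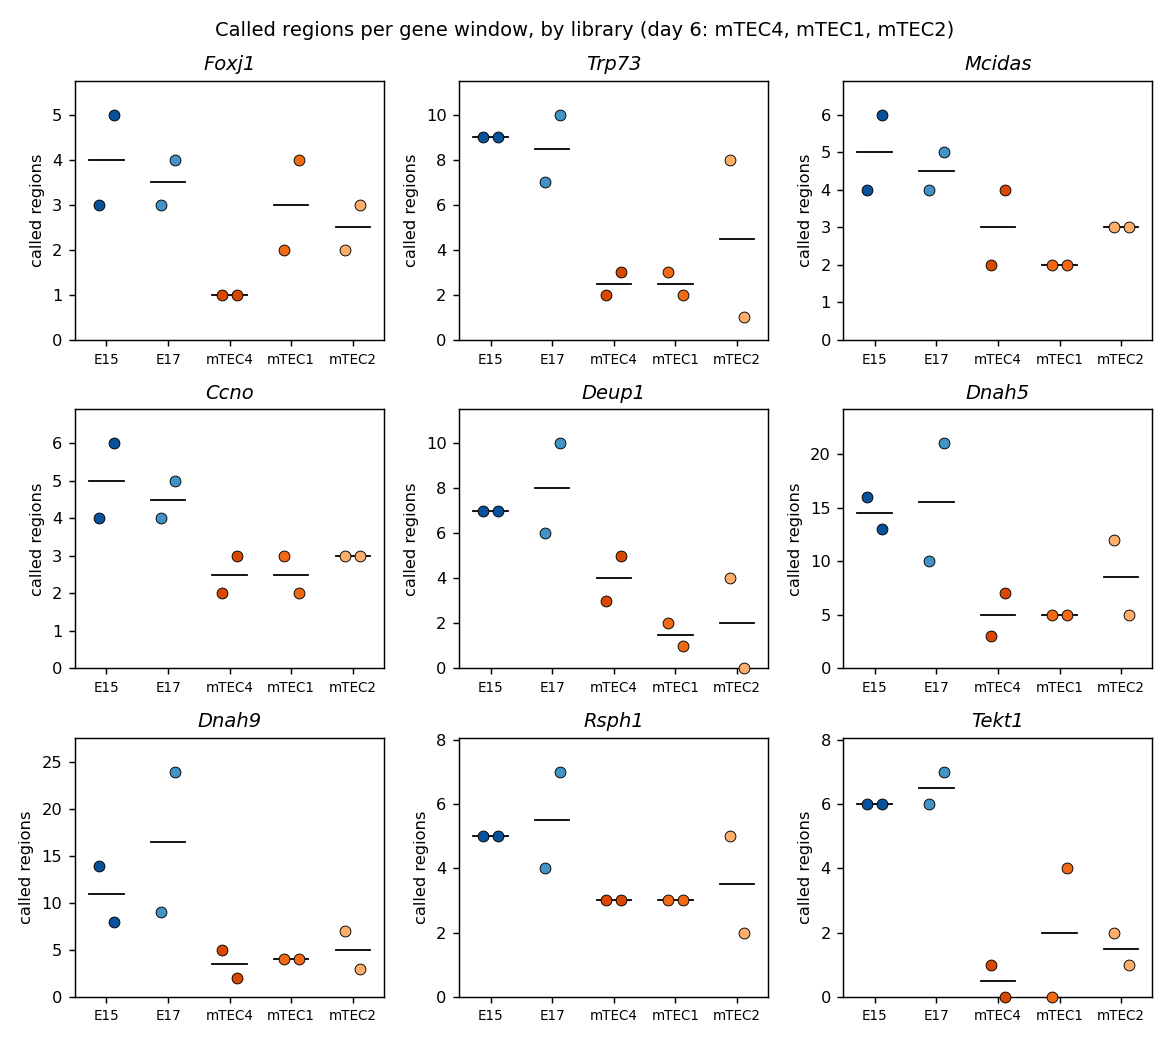
Called regions in each gene window (y axis, from 0) by group, with 1 point per library and a bar at the group's mean. At Ccno, Deup1, Dnah9 and Tekt1 every embryonic library lies above every day 6 library, as at 16.3% of all genes tested. At equal list length none of these genes kept that separation. Relative to each library's mean over genes, Foxj1, Mcidas, Ccno and Rsph1 were lower in embryonic libraries.

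Mcidas (chromosome 13, 112993581 to 113000394) encodes multicilin. Its window held 4 and 6 regions in the E15 libraries, 4 and 5 in E17, 2 and 4 in mTEC4, 2 and 2 in mTEC1, and 3 and 3 in mTEC2. Groups overlapped, since mTEC4 replicate 2 equalled the lowest embryonic count. The difference of 2.08 regions, 4.75 ± 0.957 (SD, n = 4) against 2.67 ± 0.816 (SD, n = 6), had an adjusted exact permutation p of 0.0805 over all genes. A region at 112994323 to 112994497, inside the gene 829 bp from its start, was called in all 4 embryonic and 5 of 6 day 6 libraries. By the highest −log10 q in any list, the strongest Mcidas region inside or beyond the gene's far end lay at 113000676 to 113000858. Its −log10 q was 9.47, 6.10, 11.6 and 27.4 in the embryonic lists, and in day 6 it was called in mTEC2 replicate 1 alone. The region at 112994323 to 112994497 had 14.8, 11.6, 16.4 and 20.3 in the embryonic lists, so it was the stronger in all but E17 replicate 2. The highest −log10 q of the whole Mcidas window belonged to the region over the Ccno start.

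Ccno (chromosome 13, 112987802 to 112990778) is the nearest neighbour of Mcidas. Its window held 4 and 6 regions in E15, 4 and 5 in E17, 2 and 3 in mTEC4, 3 and 2 in mTEC1, and 3 and 3 in mTEC2. The groups did not overlap, as also held for 16.3% of all genes tested. Its means of 4.75 ± 0.957 (SD, n = 4) and 2.67 ± 0.516 (SD, n = 6) gave a difference of 2.08 (exact permutation p = 0.00476, adjusted p = 0.0343), which turned in sign relative to the library means. Without flanks the difference was 0, because the only region touching the gene itself was the one called in all 10 libraries at its start. That region was stronger than 78.3 to 98.8% of the peaks in each of the 10 lists.

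Deup1 (chromosome 9, 15559864 to 15628351) encodes a protein of the deuterosome, the structure on which multiciliated cells assemble centrioles. It held 7 and 7 regions in E15, 6 and 10 in E17, 3 and 5 in mTEC4, 2 and 1 in mTEC1, and 4 and 0 in mTEC2. Every embryonic library was above every day 6 library, as held for 16.3% of all genes tested. The difference of 5 regions passed (exact permutation p = 0.00952, adjusted p = 0.0497). Of its 21 regions, 5 were called in all 4 embryonic libraries and 3 of these in no day 6 library. Those 3 lay inside the gene at 15574895 to 15575350, 15595475 to 15595721 and 15618821 to 15619517. The middle one, 32.8 kb into the gene, had a −log10 q of 15.5 and 20.1 in E15 and 22.8 and 32.7 in E17, stronger than 93.1 to 97.1% of the peaks in each embryonic list. No day 6 library had a peak there. Day 6 libraries had 10 regions around Deup1 that no embryonic library had, 8 of them in 1 library each.

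**Figure D3:**
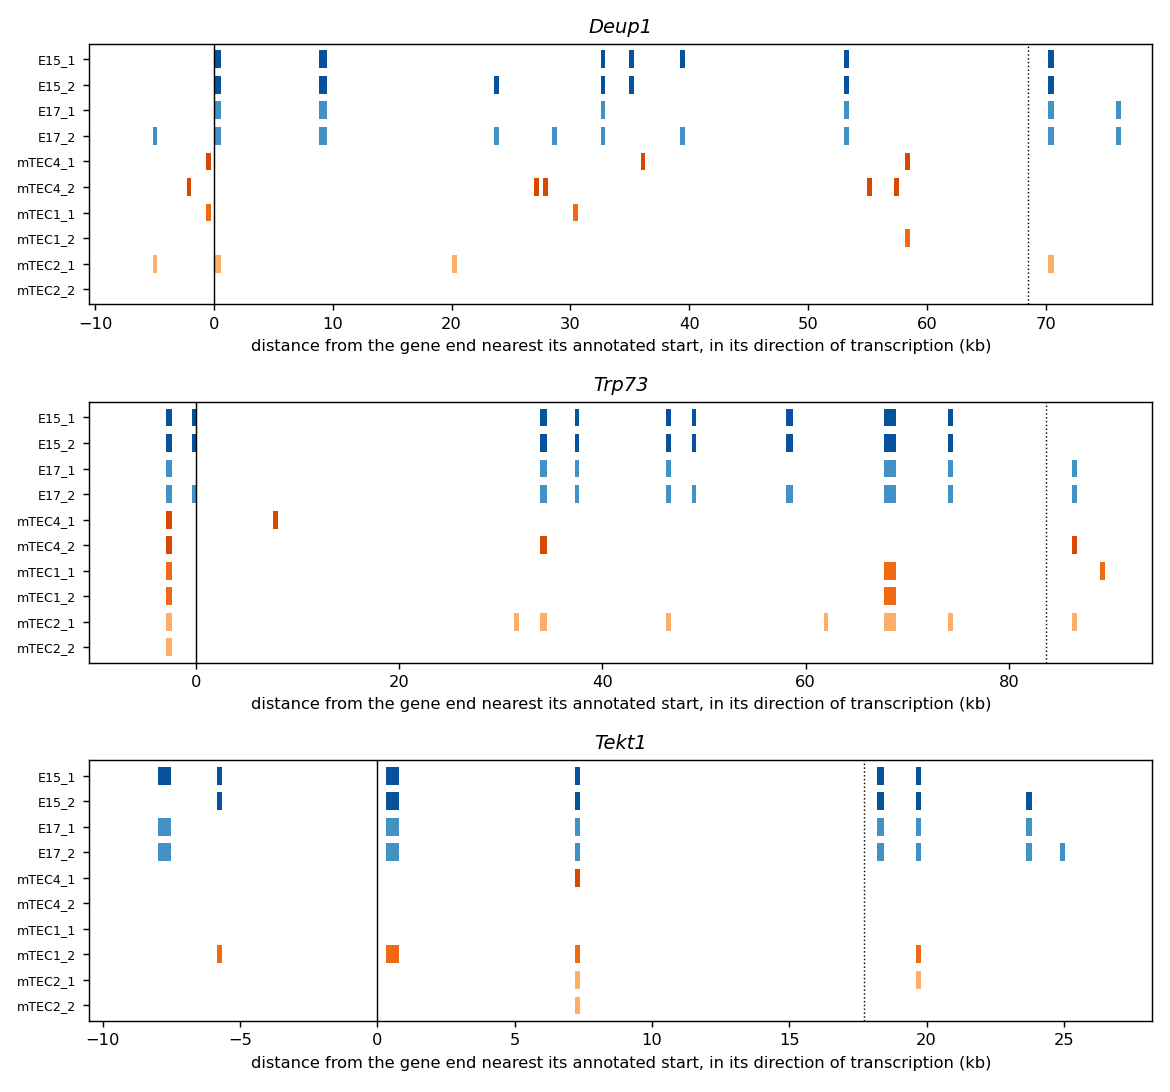
Called regions in the windows of Deup1, Trp73 and Tekt1, 1 row per library; the x axis is the distance in kb from the gene end at its annotated start (solid line) towards its other end (dotted line). Narrow regions are widened for visibility; the 4 embryonic rows share 5, 6 and 4 positions, of which 3, 1 and 1 are in no day 6 row.

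Trp73 (chromosome 4, 154056249 to 154139875) encodes p73, a p53-family factor that acts upstream of Foxj1 in multiciliated cells. Its window held 9 and 9 regions in E15, 7 and 10 in E17, 2 and 3 in mTEC4, 3 and 2 in mTEC1, and 8 and 1 in mTEC2. Only mTEC2 replicate 1 reached the embryonic range. The means were 8.75 ± 1.26 (SD, n = 4) and 3.17 ± 2.48 (SD, n = 6), and the difference of 5.58 had an adjusted exact permutation p of 0.0696. Without mTEC2 replicate 1 the difference was 6.55 with an adjusted p of 0.0328.

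At Trp73, all 4 embryonic libraries shared 6 regions. The 1 that all 10 libraries called, at 154142256 to 154142829, lies outside the gene over an end of the neighbour Wrap73. Inside the gene, 154102200 to 154102539 was called in every embryonic and no day 6 library. The strongest by the highest value in any list, at 154065512 to 154065660, had a −log10 q of 7.98, 4.25, 19.0 and 30.4 in the embryonic lists. It was otherwise called in mTEC2 replicate 1. In both E15 lists the region at 154142256 to 154142829 was stronger, at 18.0 and 17.3.

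Foxj1 (chromosome 11, 116330704 to 116335499) encodes the forkhead factor that activates motile cilium genes. Its window held 3 and 5 regions in E15, 3 and 4 in E17, 1 and 1 in mTEC4, 2 and 4 in mTEC1, and 2 and 3 in mTEC2. The embryonic and day 6 ranges overlapped, with mTEC1 replicate 2 and mTEC2 replicate 2 inside the embryonic range and both mTEC4 libraries lowest. The difference of 1.58 regions did not pass (exact permutation p = 0.0857, adjusted p = 0.179). Its strongest region, 116335221 to 116335958 across the high-coordinate end of the gene and within 1 kb of an end of Rnf157, was called in all 10 libraries. It was stronger than 66.7 to 92.5% of the peaks in each list, and it was the only region touching the gene. Regions in the flanks, at 116327002 to 116327584 and 116340825 to 116341508, had calls in every embryonic library and in 3 and 1 day 6 libraries.

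Among the 5 genes whose counts, divided by the library means, followed Foxj1 most closely over the 10 libraries were Ccdc71 (Pearson r = 0.925), Klhdc8b (0.925), Higd1a (0.921) and Sox21 (0.917). They came from 17485 genes and have no test, and all points share their library's list length.

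Dnah5 (chromosome 15, 28154854 to 28472045) and Dnah9 (chromosome 11, 65831324 to 66168581) encode heavy chains of the outer dynein arms, the motors of ciliary beating. At Dnah5 there were 16 and 13 regions in E15, 10 and 21 in E17, 3 and 7 in mTEC4, 5 and 5 in mTEC1, and 12 and 5 in mTEC2. Only mTEC2 replicate 1 entered the embryonic range. The means of 15 ± 4.69 (SD, n = 4) and 6.17 ± 3.13 (SD, n = 6) differed by 8.83 (exact permutation p = 0.00952, adjusted p = 0.0497). At Dnah9 the libraries had 14 and 8 in E15, 9 and 24 in E17, 5 and 2 in mTEC4, 4 and 4 in mTEC1, and 7 and 3 in mTEC2. Here the ages did not overlap, with embryonic counts above all day 6 counts as at 16.3% of all genes tested. The difference of 9.58 passed (exact permutation p = 0.00476, adjusted p = 0.0343). Without E17 replicate 2, the longest list, the Dnah9 difference was 6.17 (exact permutation, adjusted p = 0.0833). Both genes are long, at 317 and 337 kb, and the 557 genes of at least 300 kb had a median difference of 8.17 regions with all peaks, close to both. At equal list length that median was 0.333, against 3.50 for Dnah5 and 1.25 for Dnah9.

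Of the regions of the long dynein genes, 18 of 39 at Dnah5 and 26 of 39 at Dnah9 were called in a single library. Regions called in every embryonic and no day 6 library lay at 28313517 to 28313899 in Dnah5 and at 66088807 to 66089424 and 66124227 to 66124845 in Dnah9. The strongest Dnah5 region by the highest value in any list, 28188129 to 28188346, had a −log10 q of 7.57, 11.3, 18.3 and 41.5 in the embryonic lists. It was called in mTEC4 replicate 2 and both mTEC2 libraries. In both E15 lists the region at 28181920 to 28182243 was stronger than it, at 9.70 and 12.5. The strongest Dnah9 region, 66167791 to 66168752, covered the start and was the one called in 9 libraries.

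Rsph1 (chromosome 17, 31255019 to 31277296) encodes a radial spoke protein, part of the structure that links the outer and central microtubules of the axoneme. It held 5 and 5 regions in E15, 4 and 7 in E17, 3 and 3 in mTEC4, 3 and 3 in mTEC1, and 5 and 2 in mTEC2. The ranges overlapped through mTEC2 replicate 1, and the difference of 2.08 had an adjusted exact permutation p of 0.102. Without flanks the difference was 3.17 with an adjusted p of 0.0419. Its strongest region, 31254578 to 31255029 at the low-coordinate end, was called in 9 libraries, all but mTEC1 replicate 1. The windows' most recurrent day 6 regions without any embryonic call, in 3 libraries each, were both in the Rsph1 flanks, at 31250369 to 31250641 and 31284453 to 31284998.

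Tekt1 (chromosome 11, 72344717 to 72362442) encodes a tektin, a filament protein inside ciliary microtubules. It held 6 regions in each of E15 replicate 1, E15 replicate 2 and E17 replicate 1, and 7 in E17 replicate 2. In day 6 there were 1 and 0 in mTEC4, 0 and 4 in mTEC1, and 2 and 1 in mTEC2. All embryonic libraries were above all day 6 libraries, as held for 16.3% of all genes tested. The means were 6.25 ± 0.5 (SD, n = 4) and 1.33 ± 1.51 (SD, n = 6), a difference of 4.92 (exact permutation p = 0.00476, adjusted p = 0.0343). No day 6 library alone had a region in the Tekt1 window, so all 8 regions had an embryonic call. One of them, 72343995 to 72344238 near the low-coordinate end, was called in every embryonic and no day 6 library. The strongest, 72355056 to 72355259 inside the gene, had a −log10 q of 9.85, 11.6, 25.5 and 51.1 in the embryonic lists and was called in 4 day 6 libraries.

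Across the 9 windows, every embryonic library called 38 of the 146 regions (26.0%, against 18.7% of all regions), of which 30 were also found in at least 1 day 6 library and 8 in none. The reverse, a region in all 6 day 6 but no embryonic lists, did not occur. It was rare genome-wide, at 155 of the 37119 regions called in exactly 4 or 6 libraries (0.418%), so its absence here says nothing about the members. Of the 16 regions called in at least 3 day 6 libraries, 14 had calls in every embryonic library (87.5%, against 61.1% of all such regions). The 8 embryonic-only regions made up 5.48% of the member regions against 4.29% of all regions, and 53.3% of the 15 called in exactly 4 or 6 libraries against 40.6% genome-wide. Among regions found in every embryonic library they made up 21.1%, against 22.9% of all such regions. These shares were near the background. The 3 regions called everywhere made up 2.05%, against 2.76% of all regions. Regions called in a single library made up 44.5%, against 55.1% of all regions. Of these 65, 43 came from day 6 libraries (66.2%, against 73.6% of all such regions) and 22 from embryonic ones. Merged regions found in every embryonic library had a median width of 478 bp.

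**Figure D4:**
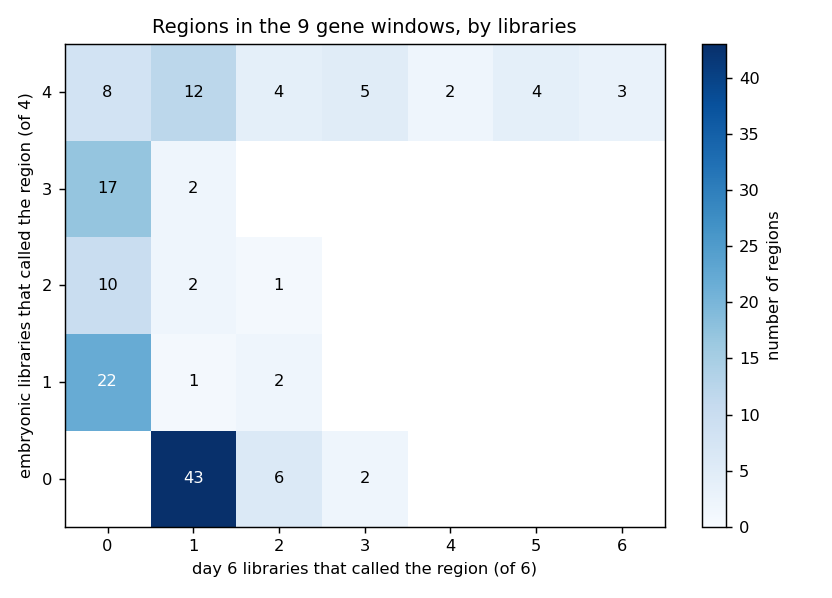
Number of regions in the 9 windows by how many embryonic (y axis) and day 6 (x axis) libraries called each; blank cells hold none. The top row holds 38 regions called in all 4 embryonic libraries, 8 of them in no day 6 library, and 43 regions were called in 1 day 6 library alone.

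The day 6 libraries differed in how many of those 38 regions they held. mTEC2 replicate 1 had 25 of them and mTEC1 replicate 2 had 17. The others had 12 in mTEC2 replicate 2, 11 and 8 in mTEC4 replicates 2 and 1, and 8 in mTEC1 replicate 1. The replicates of mTEC1 and of mTEC2 were far apart and the fractions overlapped, and with 2 libraries a group no test among the day 6 fractions can go below an exact p of 0.0667. Of the embryonic groups, E15 had 64 and 59 member regions and E17 had 49 and 88. Between E15 and E17, 2 regions were called in both E15 libraries and no E17 library and 3 the other way round, and the smallest exact p for 2 against 2 is 0.333.

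Counts were also set against list length. Per 10000 called regions of a library, the 9 windows held 5.79 to 6.27 at embryonic ages and 2.72 to 4.49 at day 6, so the ages did not overlap on this scale. Relative to each library's mean over genes, Foxj1, Mcidas, Ccno and Rsph1 were instead lower in embryonic libraries. The share of all genes whose ages did not overlap per 10000 regions was not counted. For the 9 windows together, the means per 10000 regions were 5.97 ± 0.217 (SD, n = 4) and 3.59 ± 0.716 (SD, n = 6). Their ratio was 1.66, and they are a description with no test. The mean per gene on the same scale was 0.687 to 0.741 and 0.330 to 0.582 for the 9 members, and 0.375 to 0.418 and 0.286 to 0.419 over all genes. The bases covered by called peaks in the windows spanned 15099 to 28881 bp per embryonic library and 2398 to 7319 bp per day 6 library.

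When only the 40858 peaks of highest −log10 q were kept in every list, all 9 members kept a higher embryonic mean, as 54.1% of 19859 genes tested did. The members' median difference was 1.17 regions and that of all genes 0.167. No gene of either direction passed the adjusted exact permutation test (0% called in each), 2633 genes or 13.3% had an unadjusted p under 0.05, and a pass would have needed 1892 genes at the smallest p of 0.00476. Among the members Trp73, Dnah5 and Tekt1 had unadjusted p under 0.05. Trp73 then had 5 and 4 regions in E15, 5 and 5 in E17, 1 and 3 in mTEC4, 2 and 2 in mTEC1, and 3 and 1 in mTEC2. Its ages did not overlap, as held for 3.17% of genes, and the difference of 2.75 did not pass (exact permutation p = 0.00476, adjusted p = 0.167). Dnah5 differed by 3.50 (exact permutation p = 0.0143, adjusted p = 0.311) and Tekt1 by 2.17 (exact permutation p = 0.0286, adjusted p = 0.340). Deup1 differed by 1.17 and Dnah9 by 1.25 (adjusted p = 0.513 and 0.619, exact permutation). At Foxj1 the difference was 0.333, and with the 20000 strongest peaks it turned to -0.667. Regions called in all embryonic and no day 6 library numbered 4 at this length: 15595475 to 15595721 in Deup1, 154093310 to 154093499 in Trp73, 28231823 to 28232361 in Dnah5, and 113000676 to 113000858 past the far end of Mcidas.

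**Figure D5:**
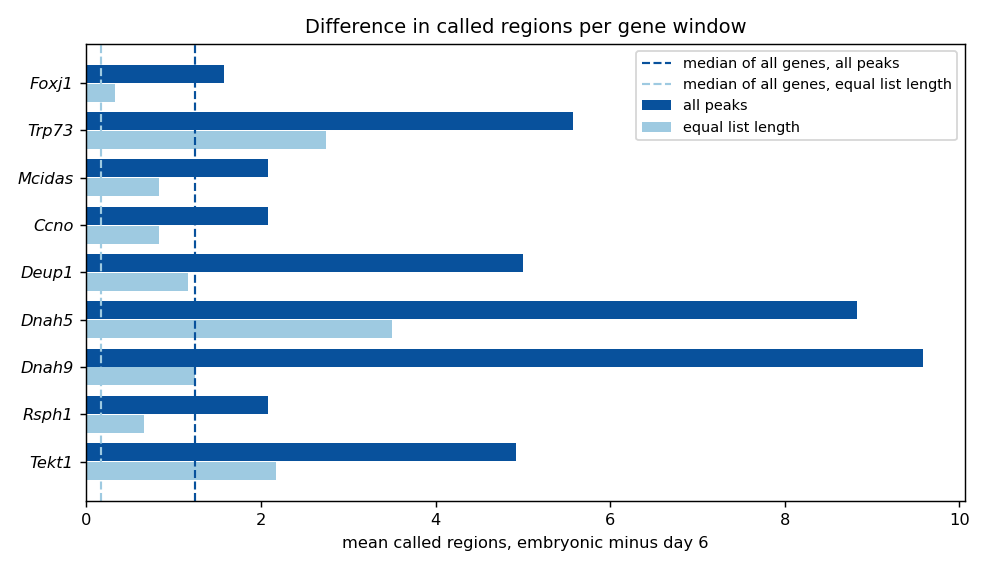
Mean called regions in embryonic minus day 6 libraries for each gene (bars, from 0), with all peaks and with lists of equal length; dashed lines mark the medians of all genes at 1.25 and 0.167. Trp73, Dnah5 and Tekt1 keep the longest bars at equal length; divided by library means, Foxj1, Mcidas, Ccno and Rsph1 were lower in embryonic libraries, and with the 20000 strongest peaks Foxj1 was lower too.

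A wider list of 92 cilium genes, of which 87 were matched and tested, moved much like the rest of the genome. Called regions rose in embryonic libraries at 17 of the 87 (19.5%, against 19.1% of all genes) and fell at 0, with a median difference of 2.08 regions against 1.25. At equal list length 0 of 86 passed and the median difference was 0.417. There 15 had an unadjusted exact permutation p under 0.05, against 13.3% of all genes, both counted in either direction. Of these 15, Dnaaf1, Gas8, Spag6l and Cfap206 were lower in embryonic libraries, with differences of -1.67, -2.67, -0.833 and -1. Cfap206 had been called higher with all peaks. Of transcription and centriole genes 6 of 20 rose, of axonemal dynein and assembly genes 4 of 21, of radial spoke, central pair and ruler genes 5 of 19, and of tektins and other ciliated cell genes 2 of 27. Among the 17 genes that passed, the largest differences were at Cdk5rap2, a centrosome gene, with a mean of 18.2 against 8 regions, Dnah6, an inner arm dynein gene, with 14 against 6.83, and Ccdc40, needed for axonemal spacing, with 11.2 against 4.33. Next among them came Dnaic1, a dynein intermediate chain gene, with 11.8 against 5.17, and Cep164, a basal body gene, and Dnah10, a dynein gene, both with 7.5 against 1.83. Tmem212 had 5.50 against 1.5, and Spef1, a central pair gene, 6.25 against 3. E2f4, a partner of multicilin, had 7.25 against 3.67, and Myb, an early factor of the programme, 6.25 against 2.83. At equal list length Cdk5rap2, Ccdc40 and Dnah10 differed by 4.42, 3.42 and 2, each short of the threshold (exact permutation p = 0.00476 unadjusted, 0.167 adjusted). Myb turned to a difference of -0.5 there (exact permutation p = 0.529).

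Counts at epithelial and mesenchyme markers also differed between embryonic and day 6 libraries, while no thymocyte, macrophage or dendritic marker passed, and at equal list length no marker of any list did. Over 8 thymic epithelial markers, summed regions were 54 to 87 at embryonic ages and 11 to 42 at day 6. Of the 8, 5 rose (Cdh1, Foxn1, Krt8, Krt14 and Trp63), against 19.1% of all genes tested. Foxn1, which defines TEC, had 0 regions in both mTEC4 libraries, and Krt5 had 0 in both mTEC4 libraries, mTEC1 replicate 1 and mTEC2 replicate 2, while Epcam had 1 or 2 in every library. Over 9 thymocyte markers the sums were 16 to 25 and 14 to 44, with 0 called, and over 6 macrophage and dendritic markers 8 to 13 and 8 to 17, with 0 called. By the unadjusted exact permutation p, 3 thymocyte and 0 macrophage and dendritic markers were under 0.05 with all peaks, with Cd3d and Cd3g lower and Lck higher in embryonic libraries (Lck was lower, by -0.333, at equal list length). At equal list length 2 thymocyte markers, Cd8a and Ptprc, and 1 macrophage and dendritic marker, Itgam, were under 0.05, and all were lower in embryonic libraries. Also under 0.05 there, but higher in embryonic libraries, were 2 epithelial markers, Krt14 and Trp63, and 3 mesenchyme markers, Pdgfrb, Col1a1 and Col1a2. Of all genes 13.3% were under 0.05 at that length in either direction. Over 6 mesenchyme markers the sums were 22 to 35 at embryonic ages and 5 to 16 at day 6. Of these markers 3 of 6 rose, against 19.1% of all genes tested, and Twist1 had 0 regions in every day 6 library. The part of other cell types in the counts at the cilium genes was not tested.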

How the data were processed

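Per the labels, TEC were sorted from digested thymus and ATAC-seq libraries were made with a modified protocol. Per the submitters' processing notes, the tools were Bowtie2, cutadapt, MACS2 and Picard and the build mm10. Versions, order and any shift of read ends are not given in the sources used here. A single file of broad peaks per library was deposited. Its fold enrichment is, per the deposited format, a linear ratio over background. The −log10 q was deposited with each peak and was at least 1.00. Both are the authors' values and served only within a list.

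From these lists regions, window counts, permutation tests and Fisher's exact tests were computed with Python 3.11.15, numpy 2.4.6, pandas 2.3.3 and scipy 1.17.1, over 21887 coding genes of the RefSeq table, of which 21026 had a region in the window. Region counting was checked on a hand-made example and the permutation test on simulated counts, but Fisher's exact test was not checked in this way. Genes were called at an adjusted p under 0.05. Members, lists and tests were chosen with earlier results of these data known. The 9 members were always named, and of the wider list the 10 called genes of largest difference. Regions were named if embryonic-only, day-6-only, called in all 10 libraries, or strongest of a member. Other regions were named after their values were seen. Whether replicate numbers pair libraries is unknown, and the main tests did not pair them. Of the 5 genes most like Foxj1, 1 is not reported here.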

Additional observations from a re-analysis of the deposited data

Results flagged for a closer look

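In 20 sets of libraries (the 4 embryonic or 6 day 6 libraries, for each gene and for all 9 together), 4 had a library that stood apart by Dixon's rule. The counts are small whole numbers with ties and the sets share regions, so no chance rate can be set beside this. mTEC2 replicate 1 stood high among the day 6 libraries for Trp73 with 8 regions, for Rsph1 with 5 and for the 9 genes together with 43. Its list, at 101917 peaks, was the longest of day 6. E17 replicate 2 had 7 regions at Tekt1 where the other embryonic libraries had 6, and its list was the longest of all. With the other embryonic counts tied, the rule flags any difference, so this flag carries no weight.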

How the results depend on the processing

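The 5 members called of 9 became 9 with a −log10 q minimum of 5 (background 70.1%), 9 with base pairs covered (73.0%), 8 where 50% of a region had to be covered (41.0%), 2 without flanks (11.3%), 3 with no minimum (13.3%), 0 with counts relative to the library mean and 0 with the replicate block. The genes called higher, 4006, became 12694, 15357, 8614 and 2064 in the first 4 of these, 8186 with flanks of 50 kb, 0 relative to the mean and 0 with the replicate block. The 27 called lower became 0 with the stricter q, 51 with base pairs, 15 with 50% covered, 7 without flanks, 220 with 50 kb, 17 with a mean of at least 1 region, and 0 in the last 2. The replicate block leaves 100 arrangements and a smallest exact permutation p of 0.0100, so a pass would need 4206 genes at it; 8 members and 7016 genes had an unadjusted p under 0.05 and were higher. Correlations between groups of the count difference, replicate 1 minus replicate 2, were over 0.1 in 2 of 10 pairs of groups (range -0.724 to 0.318). These counts were not corrected for list length, which differed between replicates, so the check cannot decide whether the numbers pair libraries.

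Leaving out 1 library gave 0 to 5 members, 0 to 5036 genes higher and 0 to 30 lower; calls were made only without mTEC2 replicate 1 (Trp73, Ccno, Dnah5, Dnah9 and Rsph1). Smaller sets of arrangements raise the smallest p, and 7 to 9 members kept an unadjusted p under 0.05 and were higher. So did many genes of the whole table, from 5670 of 20930 without E17 replicate 2 to 9773 of 20929 without mTEC2 replicate 1. Relative to the library mean Foxj1, Mcidas, Ccno and Rsph1 reversed (-0.0640, -0.0317, -0.0345 and -0.0921), and Foxj1 did so with the 20000 strongest peaks (-0.667). The 8 embryonic-only regions became 13 with the stricter q and 4 at equal list length, and 8 to 17 with 1 library left out: 17 without E17 replicate 1, 16 without mTEC2 replicate 1 and 15 without E15 replicate 2. Such regions have by definition the smallest possible Fisher p, so their passing the adjusted threshold in each of these settings adds nothing. At equal list length 0 members and 0 genes passed in any alternative, where 1 to 5 members had an unadjusted p under 0.05 and were higher. Genes that did so ranged from 1153 of 17985 with the 20000 strongest peaks to 2879 of 19761 without mTEC2 replicate 1. Unknown depth limits every count.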
